A study of Mus musculus with 2 samples.

Results

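The coagulation and plasma protein genes are 46 listed mouse genes for clotting factors, plasma protease inhibitors, carrier proteins and acute-phase proteins that the liver secretes into blood. They were chosen by name, not by a measured value, and 44 of the 46 had a row among the 18685 genes of the analysed library. Hrg and Saa2 had no row and were not analysed here. The levels described are from 1 single-cell RNA library made from grafts of Hep1-6, a mouse hepatoma line, in wild type C57BL/6 male mice aged 6 to 8 weeks, which were kept pathogen-free on a normal diet and given a SIGLEC15 antibody by injection into the abdomen. A matched library from mice given IgG held 5765 cells, but none of the 44 genes was among its 105 complete rows, so the antibody was not compared with IgG for these genes. Per the design text each group had 3 mice, whose cells form 1 library, so differences between mice cannot be seen. Cells enriched on CD45 beads were mixed with unsorted cells at equal parts after a density gradient, so the shares of cell types were set in part by the mixing.

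Hepatocytes make most proteins of blood plasma. The clotting factors circulate as inactive proteases or cofactors that act in sequence and end in thrombin, which turns fibrinogen into fibrin, while serpins and protein C limit the cascade and plasmin dissolves the clot. Much of this output depends on liver transcription factors such as HNF4 and the C/EBP family, and part of it, the acute-phase proteins, responds to interleukin-6. Hepatoma cells can keep some of these genes and lose others, and the question asked of the data was which ones the Hep1-6 clusters held.

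The library held 5482 cells and 74168827 unique molecular identifiers (UMIs, 1 per captured transcript), with 553 to 46558 per cell. The authors placed 3213 cells with 62522017 UMIs in clusters named Tumor_1 to Tumor_11, here called hepatoma cells, and 2269 cells with 11646810 UMIs in other clusters. The 8 hepatoma markers, among them Afp and Alb, summed to 13135 CPM (UMIs of a gene per 1000000 UMIs of the same cells) in hepatoma cells and 637 CPM in T cells. The sum was also 11563 CPM in the cluster named Unknown, 8283 CPM in MDSC_5 and 5513 CPM in Fibroblast&Endothelial_2, against 544 CPM in Fibroblast&Endothelial_1. Those clusters therefore carried much hepatoma RNA, and its part in their levels was not tested. In MDSC_1 to MDSC_4, the 6 neutrophil markers summed to 71032 CPM. The cluster named DC had 129 CPM of the 6 dendritic markers, 5040 CPM of the neutrophil markers and 3478 CPM of the 8 macrophage markers. Fibroblast&Endothelial_1 held 34916 CPM of the 6 fibroblast markers and 2.67 CPM of the 5 endothelial markers. Of all barcodes, 11 occurred in both libraries. A level is given as CPM with a 95% interval where one is useful. Intervals cover counting error only. The library reads the 3′ end, so CPM counts transcripts and needs no correction for gene length, although capture can differ between genes.

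Hepatoma cells held the listed genes at unequal levels, more often at 100 CPM or more and less often under 1 CPM than all genes. Of the 44 genes, 15 reached 100 CPM, against 6.78% of all 18685 genes. They were Trf, Rbp4, Fgb, Ambp, Hpx, Fgg, Itih2, Kng1, Fga, Cp, Serpinf2, Ahsg, Proc, F2 and Hp. A further 9 lay between 10 and 100 CPM (Agt, Gc, Serpina1b, Serpina10, Fetub, Serpind1, F11, Azgp1 and Vtn), so that 24 passed 10 CPM, which 37.6% of all genes did. Another 12 lay between 1 and 10 CPM, from Serpina1d at 5.87 to Itih1 at 1.02. The remaining 8 were under 1 CPM, as were 40.5% of all genes: Plg and Itih4 with 59 UMIs each, Serpina3n with 42, Serpina6 with 32, Serpinf1 with 16, F13b with 11, Saa1 with 8 and F12 with 7.

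Compared with all other cells, 31 of the 43 genes with at least 10 UMIs were higher in hepatoma cells by 2-fold or more, a difference seen in 14% of all genes under the same filter. The opposite held for 8 of them (Pros1, F10, Serping1, Saa3, F7, Serpina3n, Serpinf1 and Saa1), against 30.3% of all genes. Hp, F5, Orm1 and Serpina6 lay between. The filter took the UMIs of both groups together, so a gene could pass it through its level in 1 group alone. Among the 31, Serpina1a, Itih1, Itih3, Itih4, Plg and F13b had under 10 UMIs in the other cells. F13b rested on 11 and 1 UMIs, at a ratio of 2.05 (0.298 to 88.2). These counts, and their shares of all genes, are therefore not independent of the filter. The median log2 ratio of hepatoma to other cells was 2.15 for the 43 genes and -0.26 for all genes tested. The other cells include the cluster Unknown, which carried much hepatoma RNA. It held 6450 of their 11480 Trf UMIs and 4084 of their 6313 Fgb UMIs, so these ratios depend on that cluster. Median depth was 20428 UMIs in hepatoma cells and 2605 in the others.

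**Figure D1:**
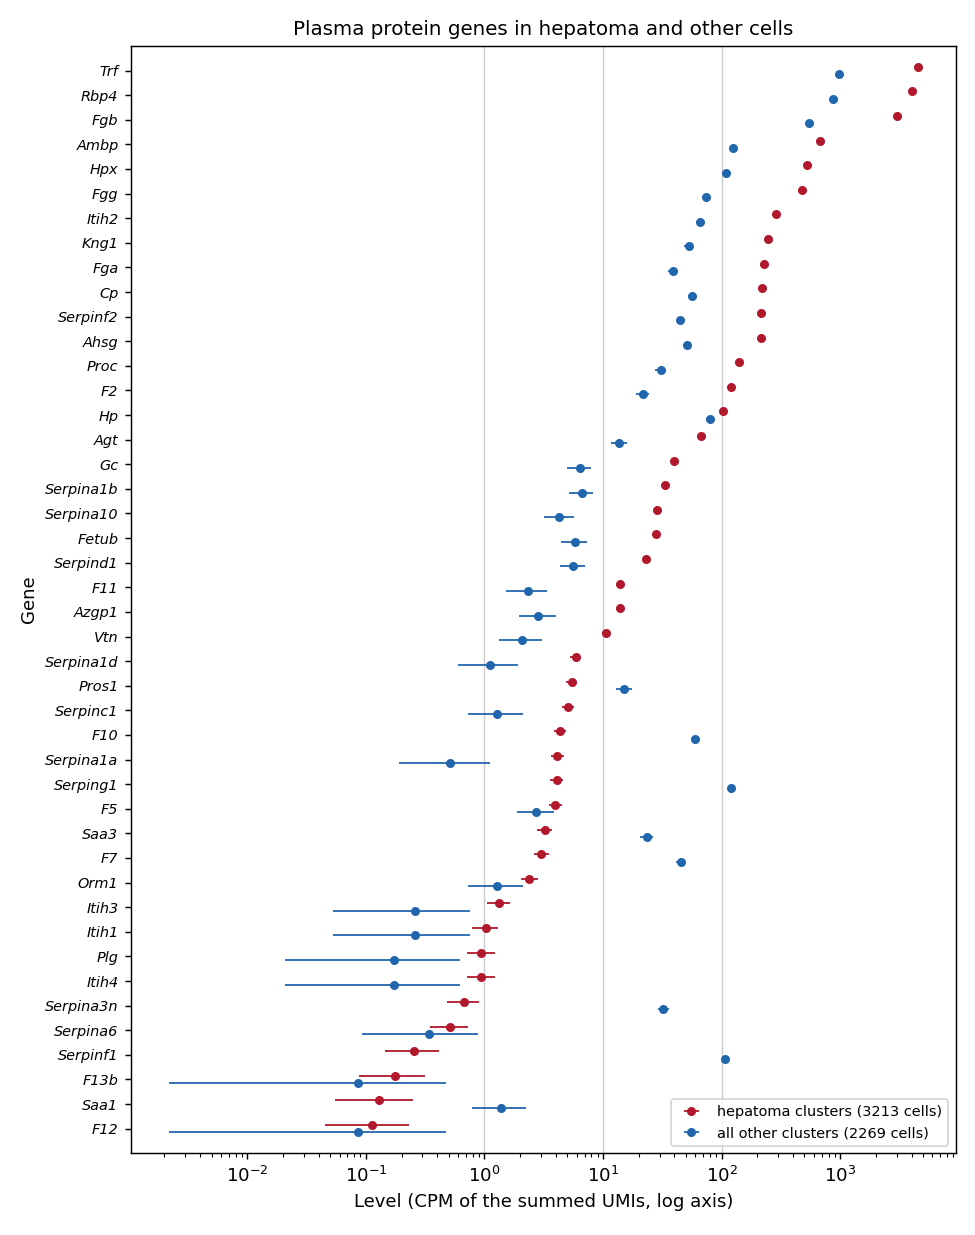
Level of each of the 44 genes in hepatoma cells (red) and in all other clusters (blue), as CPM of the summed UMIs on a log axis; bars are exact Poisson 95% intervals and grey lines mark 1, 10 and 100 CPM. Red points lie right of blue for most genes, and the reverse is seen for Pros1, F10, Serping1, Saa3, F7, Serpina3n, Serpinf1 and Saa1.

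The fibrinogen genes Fga, Fgb and Fgg encode the 3 chains that assemble into 1 protein, and they lie together on mouse chromosome 3. Their windows of 250 bases before the start are shown because the chains had unequal levels, on the strand of the gene, from RefSeq GRCm38.p6. Capitals mark the motif GTTAAT or its reverse complement ATTAAC. The windows are chr3:83025903-83026152 on the plus strand for Fga, chr3:83049864-83050113 on the minus strand for Fgb and chr3:83007474-83007723 on the plus strand for Fgg.
Fga: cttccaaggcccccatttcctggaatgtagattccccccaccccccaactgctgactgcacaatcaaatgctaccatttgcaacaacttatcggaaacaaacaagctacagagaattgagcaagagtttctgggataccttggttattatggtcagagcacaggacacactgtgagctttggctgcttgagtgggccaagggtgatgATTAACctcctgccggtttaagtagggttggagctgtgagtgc
Fgb: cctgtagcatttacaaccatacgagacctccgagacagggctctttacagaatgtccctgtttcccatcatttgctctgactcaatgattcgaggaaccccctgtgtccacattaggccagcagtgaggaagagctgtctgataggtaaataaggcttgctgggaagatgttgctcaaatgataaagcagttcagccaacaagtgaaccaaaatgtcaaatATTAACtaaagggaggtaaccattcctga
Fgg: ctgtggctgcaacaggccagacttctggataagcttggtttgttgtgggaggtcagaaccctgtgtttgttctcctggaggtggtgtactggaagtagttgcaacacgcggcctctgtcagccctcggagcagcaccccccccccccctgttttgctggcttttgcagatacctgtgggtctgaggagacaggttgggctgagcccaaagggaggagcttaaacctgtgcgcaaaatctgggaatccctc
The motif stood 43 bases before the RefSeq start in Fga and 29 in Fgb, and no match was in the Fgg window. Of 32536 promoter windows of that length, 6.47% held it on either strand. Among the 46 listed genes, 37 had a window and 10 of these held the motif: Cp, F13b, Fga, Fgb, Gc, Itih1, Serpina1a, Serpina1b, Serpina1d and Vtn. The 3 Serpina1 windows among these 10 are near copies of each other. For 29 of the 37 genes, the bases after the start were found in an annotated transcript of the gene. A C/EBP-like motif, TTGCNNAA, was in 9.57% of all windows and in 14 of the 37. For both motifs a gene counted where any of its windows held a match, and the 37 genes had 40 windows. The shares of all windows are therefore not the same measure as these counts. The 14 include Saa1 with Saa2 and Serpina1b with Serpina1d, pairs with nearly the same transcript. Each motif was counted on both strands without regard to overlap with the other. A match describes the letters only, and the data hold no measure of binding.

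Fgb was the most abundant chain, at 2997 CPM in hepatoma cells (2983 to 3010), with 481 CPM for Fgg (476 to 486) and 227 CPM for Fga (224 to 231). Across the 11 hepatoma clusters, Fgb ran from 1669 CPM in Tumor_4 through a median of 2486 to 7241 in Tumor_11. Fgg ran from 106 CPM in Tumor_8 through a median of 313 to 2561 in Tumor_11. For Fga the lowest was 41.5 CPM in Tumor_8, the median 126 and the highest 1328 in Tumor_11. The range was thus 4.34-fold for Fgb, 24.1-fold for Fgg and 32.0-fold for Fga, so the chains were nearer to each other where all were high. The Fgb to Fga ratio was 42.6 in Tumor_8 (37.1 to 49.2) and 36.2 in Tumor_1 (32.9 to 40.0), but 10.2 in Tumor_5 (9.82 to 10.5) and 5.45 in Tumor_11 (5.21 to 5.71). Tumor_5 and Tumor_6 came next after Tumor_11 for all 3 chains. UMIs of all 3 chains were found in 71 of 71 cells of Tumor_11, 80.1% of Tumor_5, 64.1% of Tumor_6, 21.7% of Tumor_1 and 12.6% of Tumor_4. Tumor_4 was shallow, with a median of 2483 UMIs per cell, and 18449 to 24288 in the other clusters. In T cells the share was 0.769% at a median of 2808.5 UMIs.

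**Figure D2:**
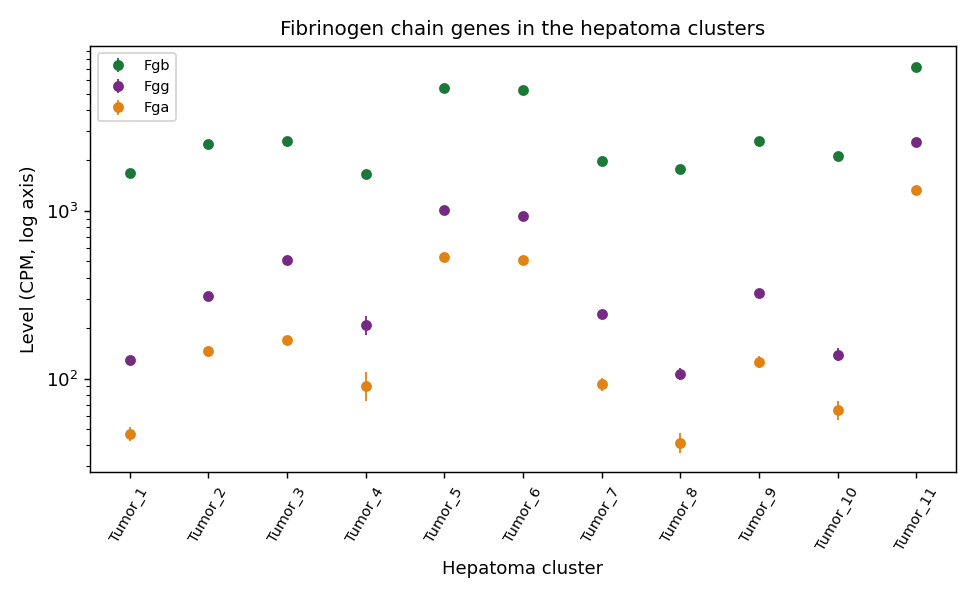
Fibrinogen chain genes in each hepatoma cluster, as CPM on a log axis with exact Poisson 95% intervals, which are often smaller than the points. Fgb was highest and Fga lowest in every cluster, and the chains lay closest in Tumor_11, at 7241, 2561 and 1328 CPM.

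Among the other clotting proteases, F2, which encodes prothrombin, was at 120 CPM in hepatoma cells. It ran from 44.1 CPM in Tumor_8 through a median of 101 to 372 in Tumor_11, with 240 in Tumor_6. F11, a protease of the intrinsic pathway, was at 14.0 CPM, from 6.88 in Tumor_3 to 31.1 in Tumor_6. UMIs of both genes were found in every hepatoma cluster. F10, F5 and F7, which form or activate the enzyme that cuts prothrombin, were at 4.37, 3.97 and 3.02 CPM. F12, which starts the contact pathway, and F13b, the carrier of the fibrin cross-linking factor, were at 0.112 and 0.176 CPM. F9 had no row and was not analysed here. Kng1, the kininogen of the contact pathway, contrasted with F12: its level was 246 CPM, from 88.6 in Tumor_1 through a median of 177 to 1178 in Tumor_11.

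Genes that restrain clotting were also unequal. Proc, the anticoagulant protease protein C, was at 141 CPM and ran from 62.4 in Tumor_1 to 262 in Tumor_11. Pros1, its cofactor protein S, was at 5.44 CPM, from 0.767 in Tumor_1 to 8.35 in Tumor_9. Serpinc1, which encodes antithrombin, the main inhibitor of thrombin, was at 5.09 CPM, while Serpind1, the second thrombin inhibitor heparin cofactor, was at 23.2 CPM and Serpina10, the inhibitor that works with protein Z, at 28.7 CPM. Of the fibrinolytic pair, Serpinf2, the plasmin inhibitor, was at 217 CPM and its target gene Plg, plasminogen, at 0.944 CPM. Serpinf2 ran from 38.0 CPM in Tumor_1 through a median of 188 to 821 in Tumor_11. Plg was at 0 UMIs in 5 clusters, where 3 counts would be 0.583 to 2.65 CPM, at 0.110 to 0.584 CPM in 5 others and at 28.7 CPM in Tumor_11.

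Carrier proteins held the 2 highest levels of the list. Trf, the iron carrier transferrin, was at 4520 CPM and was found in 99.4% of hepatoma cells, with 2369 CPM in Tumor_1, a median of 4209 and 8900 in Tumor_11. Rbp4, the retinol carrier, was at 4012 CPM and followed another order. It was highest in Tumor_6 (6312 CPM), Tumor_10 (5869) and Tumor_5 (4906), lowest in Tumor_3 (2673) and at 3740 in Tumor_11. Hpx, the haem carrier hemopexin, was at 524 CPM (173 in Tumor_1, median 535, 1363 in Tumor_11). Hp, the haemoglobin scavenger haptoglobin, was at 104 CPM and varied much more, from 11.3 in Tumor_1 through a median of 77.6 to 730 in Tumor_11. For Cp, the copper oxidase ceruloplasmin, the lowest value was 61.8 CPM in Tumor_4, the median 178 and the highest 482 in Tumor_11. Gc, the vitamin D carrier, was at 39.3 CPM and reached 266 in Tumor_11. Azgp1, a zinc-binding glycoprotein, was at 13.9 CPM and reached 121 there. Serpina6, the carrier of corticosteroids, was at 0.512 CPM, with 26 of its 32 UMIs in Tumor_11.

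The bikunin and inter-alpha-inhibitor genes split by chain. Ambp, the precursor of bikunin, was at 681 CPM (306 in Tumor_10, median 555, 2328 in Tumor_11), and Itih2, a heavy chain that is joined to it, was at 287 CPM (140 in Tumor_4, median 246, 435 in Tumor_11). Itih1, Itih3 and Itih4, whose promoter windows lie close together on chromosome 14, were at 1.02, 1.33 and 0.944 CPM. The fetuins Ahsg and Fetub, inhibitors of mineral deposition and of the protease that hardens the egg coat, were at 213 and 28.0 CPM. Ahsg ran from 39.2 CPM in Tumor_8 through a median of 111 to 1238 in Tumor_11, whereas Fetub was highest in Tumor_6 at 58.9 CPM. Agt, the precursor of angiotensin, was at 66.7 CPM, from 8.11 in Tumor_1 to 189 in Tumor_11, with 153 in Tumor_3. Vtn, the adhesion protein vitronectin, was at 10.7 CPM and held 48.5% of its hepatoma UMIs in Tumor_11.

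The serpin genes Serpina1a, Serpina1b and Serpina1d were at 4.13, 33.5 and 5.87 CPM. These paralogs were alike over 96.2 to 97.1% of the aligned bases of their transcripts and 94.3 to 96.3% of the last 300 bases, so reads could be split between them and each single value is uncertain. Their windows before the start are shown because they are near copies that share the motif named above, in capitals, at nearly the same place. They are from RefSeq GRCm38.p6, all on the minus strand, at chr12:103863620-103863869 for Serpina1a, chr12:103738190-103738439 for Serpina1b and chr12:103773634-103773883 for Serpina1d.
Serpina1a: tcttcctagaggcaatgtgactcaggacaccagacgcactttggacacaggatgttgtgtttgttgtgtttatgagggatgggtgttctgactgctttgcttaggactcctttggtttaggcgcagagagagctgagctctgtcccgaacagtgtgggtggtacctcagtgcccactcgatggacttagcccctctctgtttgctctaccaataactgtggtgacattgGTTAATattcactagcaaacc
Serpina1b: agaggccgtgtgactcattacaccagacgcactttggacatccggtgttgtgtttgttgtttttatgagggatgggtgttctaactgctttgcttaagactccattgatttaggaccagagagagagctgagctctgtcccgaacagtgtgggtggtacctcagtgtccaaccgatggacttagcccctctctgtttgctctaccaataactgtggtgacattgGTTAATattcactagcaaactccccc
Serpina1d: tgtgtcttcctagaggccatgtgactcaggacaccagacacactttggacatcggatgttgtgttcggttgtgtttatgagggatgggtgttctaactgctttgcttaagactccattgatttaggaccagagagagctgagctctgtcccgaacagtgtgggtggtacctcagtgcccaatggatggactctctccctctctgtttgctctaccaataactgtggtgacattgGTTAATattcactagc
The motif began 21, 26 and 16 bases before the RefSeq start, and the windows were 92.6 to 93.7% identical where aligned. For these 3 windows the bases after the start were not found in an annotated transcript of the gene (GENCODE), so the distances are uncertain. UMIs of these genes sat in few cells. Serpina1b was found in 357 of 3213 hepatoma cells, Serpina1d in 51 and Serpina1a in 26, and 15 cells held all 3. The cell with the most, in Tumor_11, held 184 UMIs of Serpina1b, 110 of Serpina1d and 51 of Serpina1a. The next 3 by sum were in Tumor_11, Tumor_1 and Tumor_11, with 163, 141 and 84 UMIs of Serpina1b. Serpina1b was at 448 CPM in Tumor_11, 81.9 in Tumor_6 and 3.62 in Tumor_3.

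The serum amyloid, acid glycoprotein and antichymotrypsin genes, all acute-phase genes, were low in hepatoma cells. Saa3, a serum amyloid A gene, was at 3.21 CPM, with 29.9 CPM in Tumor_11, where 1 cell held 30 of 50 UMIs, 14.96 in Tumor_9 and 0 UMIs in Tumor_8, which allows up to 0.607. Saa1, another of that family, had 8 UMIs in hepatoma cells, 5 of them in Tumor_11. Its transcript was 96.9% identical to that of Saa2 where aligned, so its reads are uncertain too. Orm1, an acid glycoprotein, was at 2.40 CPM, with 54.0% of its UMIs in Tumor_11. Serpina3n, a serpin of the antichymotrypsin kind, was at 0.672 CPM.

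The 24 genes at 10 CPM or more differed widely between hepatoma clusters. Between the highest and the lowest cluster, 21 of the 24 had a range of 4-fold or more, which was seen in 17% of all 7022 genes at that level. Vtn passed 10 CPM only through Tumor_11, and without that cluster 17 of 23 genes had such a range. The share of all genes with such a range without Tumor_11 is not given here. Because the authors made the clusters from these cells, this is a description with no test. The clusters were compared over the 23 genes at 10 CPM or more outside Tumor_11, a filter set after the values were seen. Tumor_11, with 71 cells and 2.67% of hepatoma UMIs, was the highest cluster for 20 of the 23, and for 14.7% of all 7020 genes past that filter. The other 3, Rbp4, Fetub and F11, were highest in Tumor_6. Against the other hepatoma clusters, 19 of the 23 were 2-fold or more higher in Tumor_11, against 2.82% of all genes. In Tumor_6 this held for 10 of the 23 (1.14% of all genes) and in Tumor_5 for 8 (0.541%). The filter left out only Tumor_11, so a gene could pass it through its level in Tumor_6 or Tumor_5. Azgp1 passed it only with both Tumor_6 and Tumor_5 included, and is among the genes counted as higher in Tumor_6. The counts for Tumor_6 and Tumor_5, and their shares of all genes, are therefore not independent of the filter.

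Low levels gathered in other clusters. In Tumor_1, 16 of the 23 were lower by 2-fold or more, where 17% of all genes were. The counts were 13 in Tumor_10 (4.16% of all genes), 11 in Tumor_8 (1.88%) and 11 in Tumor_4 (11.7%). The median log2 difference of the 23 was 1.73 in Tumor_11 and -1.30 in Tumor_1, and over all genes it was -0.04 and -0.29. All 44 genes together took 3.52% of the UMIs of Tumor_11, 2.43% of Tumor_6 and 2.33% of Tumor_5. They took 0.986% in Tumor_1 and 0.971% in Tumor_4. Median depth was 24288 UMIs in Tumor_11, 20262 in Tumor_6 and 18449 in Tumor_1.

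**Figure D3:**
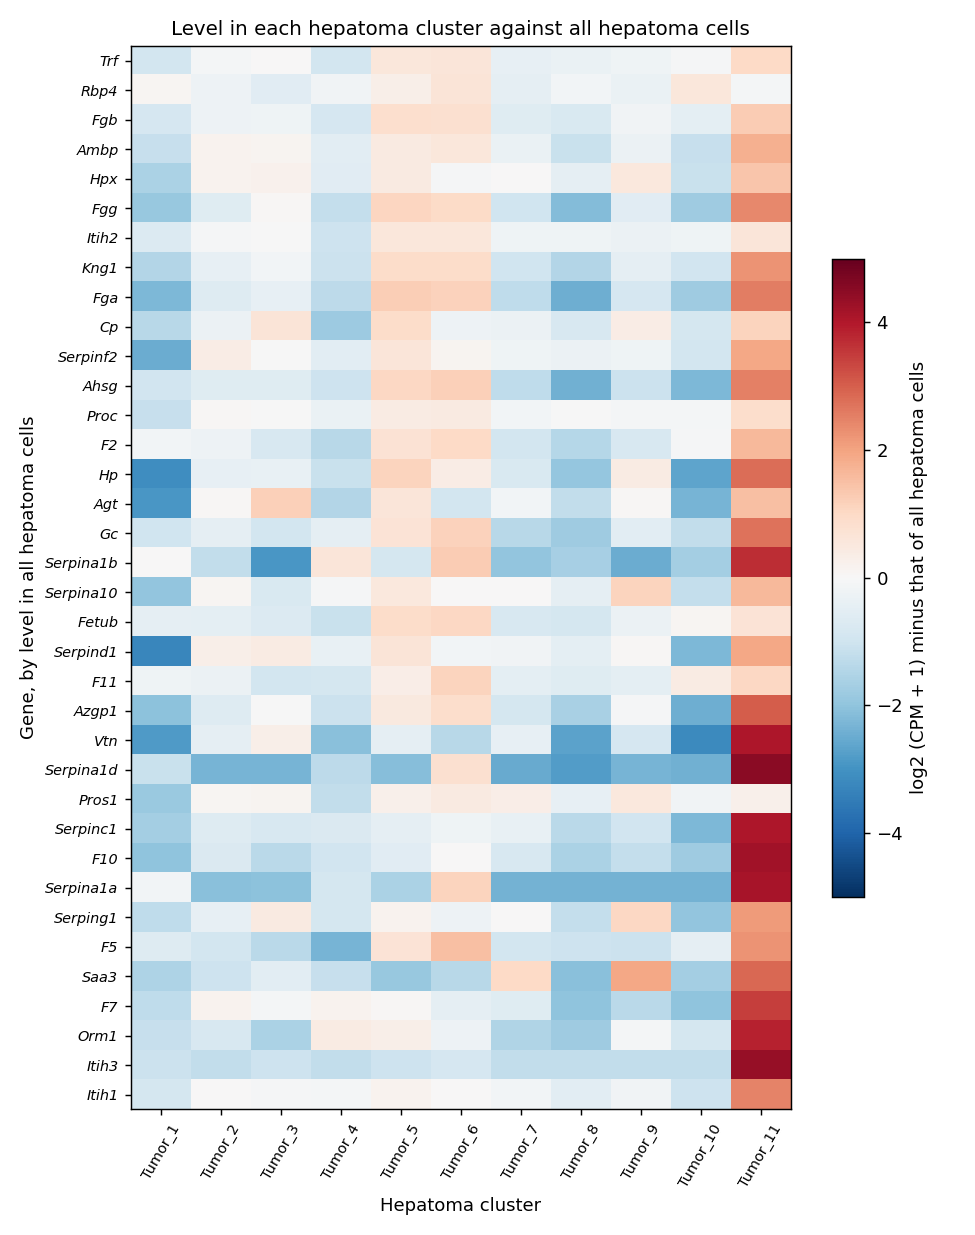
Each row is 1 of the 36 genes at 1 CPM or more in hepatoma cells and each column a hepatoma cluster; colour is log2 (CPM + 1) in the cluster minus that in all hepatoma cells. Red fills nearly the whole Tumor_11 column, with Rbp4 and Pros1 pale, while Tumor_1, Tumor_8 and Tumor_10 are mostly blue.

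Several genes that were low in hepatoma cells as a whole had most of their UMIs in Tumor_11. It held 94.0% of the hepatoma UMIs of Itih3, 81.4% of Plg, 60.4% of F10, 55.9% of Itih4 and 52.5% of Serpinc1. Serpinc1 was at 99.99 CPM in Tumor_11 (85.4 to 116) and 2.48 in the other hepatoma cells, with a UMI in 44 of 71 cells. F10 was at 98.8 CPM (84.3 to 115) and 1.77, in 49 of 71 cells. F7 was at 43.7 CPM (34.3 to 55.0) and 1.91, in 38 of 71 cells. These genes were thus spread over much of that cluster. Others were concentrated in fewer of its cells. Plg was at 28.7 CPM (21.2 to 38.1) and 0.181, in 16 of 71 cells, and Itih3 at 46.7 CPM (36.9 to 58.3) and 0.0822, in 17. Pros1 was at 6.59 CPM (3.29 to 11.8) in Tumor_11, an interval that holds the 5.41 CPM of the other hepatoma cells. Serpinf1 had 0 UMIs in Tumor_11, which by a limit of 3 counts allows up to 1.80 CPM.

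Markers of other cells were read in Tumor_11 beside these values. Of the 8 macrophage markers, Csf1r, Adgre1 and Mrc1 had 0 UMIs there, and C1qa was at 7.19 CPM against 3117 in macrophages. The list summed to 12547 CPM in Tumor_11, of which Apoe, which was at 7030 CPM in all hepatoma cells, gave 12534. Neutrophil markers summed to 16.2 CPM in Tumor_11 and 15.9 in all hepatoma cells. Of the 6 mature hepatocyte markers, 5 had a row and none was at 0. They summed to 310 CPM in Tumor_11 and to 14.0 to 95.4 CPM in the other 10 clusters. Cyp3a11 was at 22.8 CPM and Cps1 at 14.4 in Tumor_11, and at 0.0164 and 0.214 in the other hepatoma cells. Of the 24 Cps1 UMIs in Tumor_11, 1 cell held 14 and another 6, so that level rested on few cells. Whether hepatocytes of the host lie in this cluster was not tested. Afp, a marker of fetal liver and hepatoma, was at 7756 CPM in Tumor_11 and 4038 in all hepatoma cells.

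In T cells, most of the listed genes that could be read stood in about the same proportion to the hepatoma level as other hepatoma genes. The CPM in a class divided by the CPM in hepatoma cells was read against the same quotient of 7 reference genes (Alb, Afp, Apoa1, Apoa2, Apoc3, Apoh and Ttr). Its median over them was 0.0539 in T cells, 0.0907 in MDSC_1 to MDSC_4, 0.0579 in macrophages and 0.0308 in Fibroblast&Endothelial_1. It was 0.157 in Fibroblast&Endothelial_2 and 0.751 in Unknown, where Trf was at 3710 CPM. In T cells, 14 of 15 genes with at least 10 UMIs lay within 2-fold of that median. The count was 13 of 18 in MDSC_1 to MDSC_4, 16 of 21 in macrophages, 10 of 13 in the DC cluster, 11 of 19 in Fibroblast&Endothelial_1, 5 of 18 in Fibroblast&Endothelial_2 and 25 of 26 in Unknown. In Fibroblast&Endothelial_2 the reference genes themselves ran from 0 times their median for Apoc3 to 2.82 for Alb and 3.35 for Afp. Its count of 5 therefore cannot separate listed genes from hepatoma background. In Fibroblast&Endothelial_1 the median was set by Apoa2, with 1 UMI. The exception in T cells was Hp at 2.53 times the T cell median, where T cells also held 741 CPM of the neutrophil markers. Its part in the value was not tested. Trf was found in 50.8% of T cells, and in 20.4% after each cell was thinned to 1000 UMIs, against 99.4% and 92.1% of hepatoma cells. A share of cells with Trf near 20% in T cells was therefore read as background.

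A source outside hepatoma cells was called where a class of at least 50 cells had 10 UMIs or more and a quotient over 5 times the reference median. It was called for 11 of the 33 genes with that many UMIs in some class, and for 95.4% of all 12323 genes tested, most of which are not liver genes. The 11 were F5, F7, F10, Hp, Saa3, Pros1, Serpinf1, Serpina3n, Serping1, Cp and Saa1. Of these, F5, F7, Saa3, Serpinf1, Serpina3n, Serping1 and Saa1 reached 10 UMIs only in classes that called them. Passing the filter and being called were thus not independent, and 11 of 33 is a description with no test. Another 22 genes were tested and had no class past the rule, among them Fga, Fgb, Fgg, F2, Proc, Trf, Rbp4, Ambp, Kng1 and Ahsg. The remaining 11 had under 10 UMIs in every class and could not be called: F12, F13b, Itih1, Itih3, Itih4, Orm1, Plg, Serpina1a, Serpina1d, Serpina6 and Serpinc1.

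**Figure D4:**
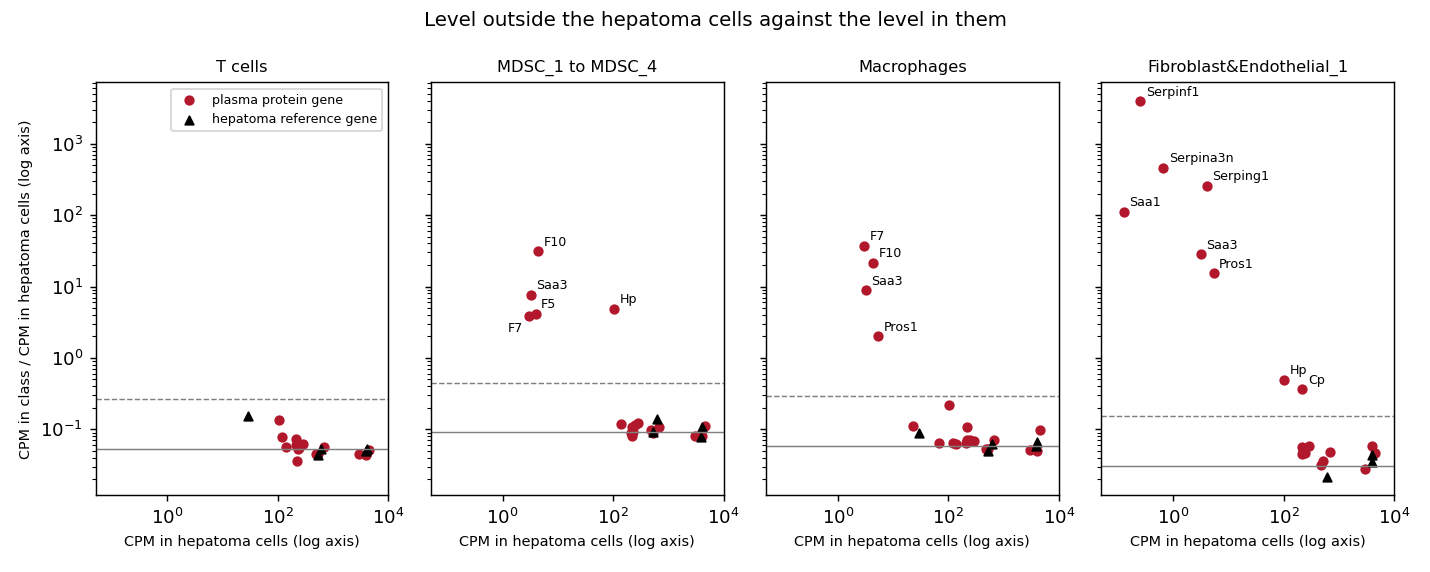
CPM in a class divided by CPM in hepatoma cells, against the level in hepatoma cells, both on log axes, for genes with at least 10 UMIs in the class; triangles are reference genes, the solid line is their median and the dashed line 5 times it. Most points lie near the solid line, and named genes lie above the dashed one, none of them in T cells.

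The stromal cluster Fibroblast&Endothelial_1 held 3 serpins that were low in hepatoma cells. Serping1, the inhibitor of the first complement component, was at 1049 CPM there (990 to 1111) and 4.08 in hepatoma cells, in 95 of 96 cells. Serpinf1, an antiangiogenic serpin, was at 1006 CPM (949 to 1067) and 0.256, in 96 of 96 cells. Its near neighbour on chromosome 11, Serpinf2, had the opposite pattern, with 217 CPM in hepatoma cells and no class past the rule. Serpina3n was at 311 CPM (279 to 345) in Fibroblast&Endothelial_1, in 55 of 96 cells. Pros1 was at 83.6 CPM (67.6 to 102), in 52 of 96 cells, and at 11.02 CPM in macrophages. Cp was at 80.1 CPM (64.4 to 98.4) against 220 in hepatoma cells. Thinned to 1000 UMIs, 57.0% of these cells had a Serping1 UMI and 62.6% a Serpinf1 UMI, against 99.0% and 100% before thinning. In T cells the thinned shares were 0.297% and 0.0213%. Fibroblast&Endothelial_2 held 608 CPM of Serping1 and 288 of Serpinf1.

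Some stromal calls rested on very few cells. Of the 103 UMIs of Saa3 in Fibroblast&Endothelial_1, 60 were in 1 cell, and only 4 of 96 cells had any. All 25 Saa3 UMIs of Fibroblast&Endothelial_2 were in 1 cell. The 16 Saa1 UMIs came from 2 cells, 14 of them from 1. Of the 58 Hp UMIs in Fibroblast&Endothelial_1, 3 cells held 29.

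Myeloid cells held F7, F10 and Hp. F10 was at 171 CPM in the DC cluster (146 to 200), 137 in MDSC_1 to MDSC_4 (113 to 164) and 94.6 in macrophages (85.2 to 105), against 4.37 in hepatoma cells. Within the neutrophil-like clusters it ran from 42.9 CPM in MDSC_2 to 340 in MDSC_4. F7, which lies beside F10 on chromosome 8, was highest in macrophages at 113 CPM (103 to 124), from 73.1 in Macrophage_2 to 179 in Macrophage_1. It was at 57.1 CPM in the DC cluster and 11.8 in MDSC_1 to MDSC_4, where MDSC_4 held 50.4. Thinned to 1000 UMIs, a F10 UMI was found in 14.8% of DC cells, 8.44% of macrophages and 8.23% of MDSC_1 to MDSC_4, against 0.0926% of T cells. Unthinned, the shares were 41.8%, 32.3%, 10.9% and 0.769%, at median depths of 3796, 6946.5, 1047 and 2808.5 UMIs.

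Hp was at 510 CPM in MDSC_1 to MDSC_4 (463 to 561), with 1317 in MDSC_2 and 168 in MDSC_3. The DC cluster held 155 CPM. The thinned share of cells with an Hp UMI was 31.7% in MDSC_1 to MDSC_4 and 1.51% in T cells, and 29.0% and 4.04% unthinned. Thinning left out 302 of 707 cells of MDSC_1 to MDSC_4, 26 of 520 T cells, 50 of 532 macrophages, 4 of 208 DC cells and 0 of 96 cells of Fibroblast&Endothelial_1. Saa3 was at 28.5 CPM in macrophages, with 131 in Macrophage_3. F5 had 14 UMIs in 12 cells of MDSC_1 to MDSC_4, or 16.5 CPM (9.02 to 27.7).

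**Figure D5:**
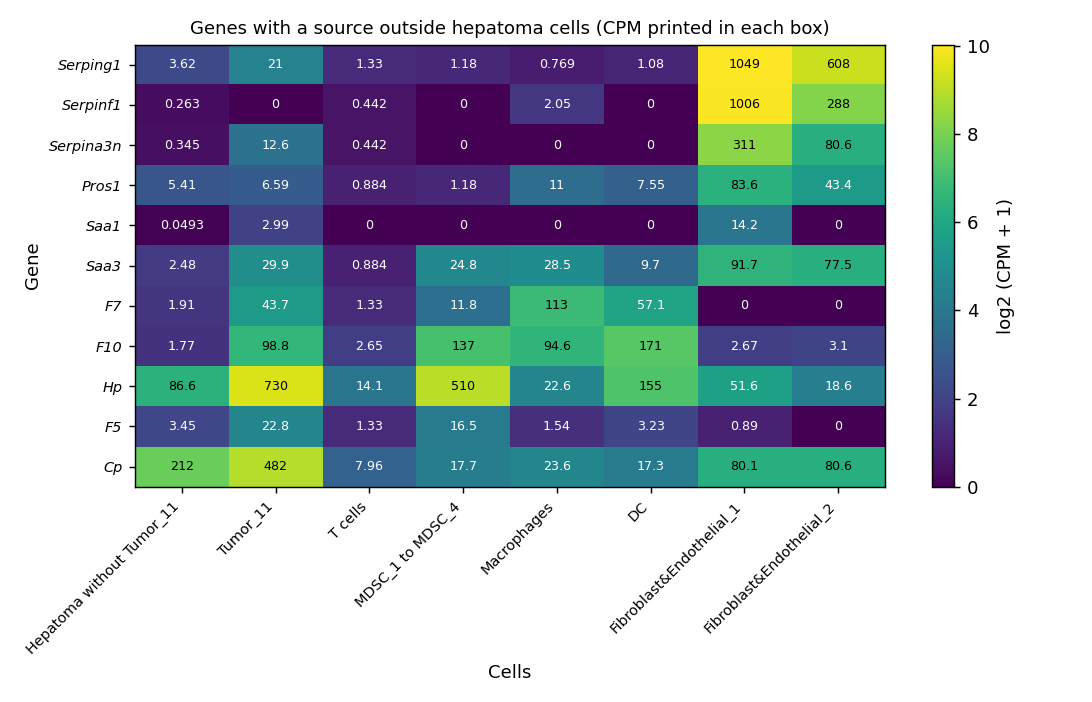
The 11 genes with a source outside hepatoma cells, with the CPM printed in each box and colour as log2 (CPM + 1), in hepatoma cells without Tumor_11, in Tumor_11 and in 6 other classes. Serping1, Serpinf1 and Serpina3n are bright in the fibroblast and endothelial clusters, F7 and F10 in the myeloid classes and in Tumor_11, and Hp in Tumor_11 and MDSC_1 to MDSC_4.

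Genes that work with the listed ones were read from fixed lists in the same hepatoma cells. All 4 genes of the vitamin K cycle, which activates several clotting factors and protein C, lay between 10 and 100 CPM: Vkorc1 at 48.4, Vkorc1l1 at 25.9, Ggcx at 15.1 and Nqo1 at 12.7. Of all 18685 genes, 5756 lay in that band. Of 22 other clotting and fibrinolysis genes, 20 had a row, 3 reached 100 CPM and 10 were under 1 CPM, against 6.78% and 40.5% of all genes. Among the 3 were S100a10 at 798 and Anxa2 at 724 CPM, which form a plasminogen receptor. Tissue factor, F3, was at 2.40 CPM in hepatoma cells, 85.4 in Fibroblast&Endothelial_1 and 61.3 in MDSC_1 to MDSC_4. F13a1, the catalytic partner of F13b, was at 0.336 CPM in hepatoma cells and 778 in Macrophage_3.

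Of 31 other liver plasma proteins, 28 had a row, 13 reached 100 CPM and 7 were under 1 CPM, against 6.78% and 40.5% of all genes. Among the 13 liver transcription factors, 12 passed 1 CPM in hepatoma cells, with Hnf4a at 58.2 CPM, and 1 was under it, as were 40.5% of all genes. In Tumor_11 Hnf4a was at 89.2 CPM. Most of the other factors were also higher there than in all hepatoma cells, but Foxa2, Cebpb, Cebpd and Onecut1 were not. Of 10 genes of interleukin-6 signalling, 7 lay between 10 and 100 CPM and none above, where 5756 of all 18685 genes lay in that band. Il6 itself was at 0.0320 CPM in hepatoma cells and 51.6 in Fibroblast&Endothelial_1. Among 9 iron genes, Hamp, the hormone hepcidin, was at 28.2 CPM in hepatoma cells and 428 in Tumor_11, while Tfrc, the transferrin receptor, was at 30.8 and 38.9 CPM.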

How the data were processed

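Libraries were made with a droplet method that reads the 3′ end of transcripts, per the labels' protocols, and per the submitters' processing notes Cell Ranger 2.1.1 made the counts. For the build, the cell filters and the clustering, the method is not given in the sources used here. The authors deposited natural log values, ln(1 + 10000 times the UMI count over the cell total), a form tested on the values, and a cluster name per cell. Whole UMIs were recovered for all 15274637 values above 0 (tolerance 0.001), and the sum over genes equalled the depth in 5482 of 5482 cells.

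UMIs were summed over the cells of a cluster and scaled to CPM. Intervals were exact Poisson, Clopper-Pearson or exact conditional 95% intervals. A class is a set of the authors' clusters. With 1 library per group no p-value was computed. Cells were thinned by expected values, leaving out cells under 1000 UMIs. No doublet was removed. Scrublet in scanpy 1.11.5 marked 3 of 5482 cells (0.0547%) and cannot be said to have worked. The steps were tested on simulated data. Python 3.11.15, numpy 2.4.6, pandas 2.3.3, scipy 1.17.1, Biopython 1.88 and matplotlib 3.10.9 were used.

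The genes, lists and thresholds were chosen with earlier results of these data known. Genes named were the listed ones, by level in hepatoma cells, and genes of the fixed lists. Alternatives were other UMI minimums, thresholds and scalings, a mean over cells, clusters weighted alike and leaving out clusters.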

Additional observations from a re-analysis of the deposited data

How the results depend on the processing

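Of 55 alternatives to the 6 counts of genes (15 at 100 CPM or more, 8 under 1 CPM, 31 higher and 8 lower in hepatoma cells, 21 with a 4-fold range, 11 with a source elsewhere), 51 stayed within 1.5 times. The count of 8 genes under 1 CPM was 5 when CPM left out mitochondrial and ribosomal protein genes, which raised all 44 levels by 1.59 times, 4 when clusters were weighted alike and 4 at a threshold of 0.5 CPM. The 4-fold range held for 13 genes at 50 CPM or more, where fewer genes were counted. Without Tumor_11, an alternative chosen after seeing the data, the level of 16 of 44 genes in hepatoma cells moved by over 1.5 times, most for Itih3 (from 1.33 to 0.0822 CPM), and the counts were 10 under 1 CPM, 26 higher in hepatoma cells and 17 with a 4-fold range. With clusters weighted alike, 18 of 44 levels moved by over 1.5 times, up to 3.24 times for Itih3, with Serpinc1 at 11.3 and Plg at 2.75 CPM. No paired analysis was possible because each group has 1 library. Levels of genes with under 20 UMIs, such as F13b, Saa1 and F12, are limited by depth.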
